A study of Mus musculus with 8 samples.

Results

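The comparison set the distal ileum of 1 Cftr null mouse (KO) against that of its wild-type (WT) littermate, both given antibiotics. The measure was the ratio of the KO to the WT value within that couple, gene by gene. Of 41128 gene symbols, 11641 had a value of 1 or more in at least 1 of the 2 libraries. From these, 369 genes whose WT value was shared with another gene were left out, and so were 45 genes listed at 0 in WT with 1 or more in KO. The remaining 11227 genes were compared. With 1 library per genotype, no ratio in this couple has a replicate check, and no p-value was computed for one.

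Polyadenylated RNA was sequenced from whole sections of ileum, cut within 6 cm of the ileocecal valve, in 4 littermate couples of FVB mice (8 libraries, 1 per mouse). The KO mice were homozygous for the Cftr tm1Cam null allele (Cftr -/-) and the WT mice were Cftr N/N. The antibiotic couple was labelled female, and its drinking water held the fluoroquinolone ciprofloxacin at 0.3 g/L and the nitroimidazole metronidazole at 0.5 g/L. The other 3 couples had no antibiotics: couples 1 and 3 were female and couple 2 was male. All mice were reared on a low fiber diet with an osmotic laxative that was stopped more than 4 days before sampling. Tissue of each couple was taken between 12 and 14 h, with at most 20 min between the littermates. The sources used here do not give the age of the mice or the length of the antibiotic course. Antibiotics, litter and sampling occasion coincide in this couple and cannot be told apart.

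The deposited values were read as RPKM, reads scaled by gene length and library size; sequencing depth per library is unknown. The antibiotic couple was normalized apart from the others. Levels of different couples are therefore not on 1 scale; where they are printed side by side, the comparison is of the KO to WT ratios, apart from a check for values far outside all other libraries. Ratios are given as differences of log2(value + 1), which understates the change of genes with low values, and a fold is on the same scale. In the WT antibiotic column 376 genes shared 48 non-zero values, against 18 to 26 such genes in each of the other 7 columns, so single values of that column are less certain. Of the 21 cell types checked, enterocyte markers were the most abundant in both libraries (sum of 6 markers 23200 in WT and 28120 in KO), while the 4 tuft cell markers were at 0 in both.

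CFTR is the apical chloride and bicarbonate channel of the intestinal epithelium, and its loss leaves mucus thick and the lumen prone to obstruction and bacterial overgrowth. The ileum absorbs conjugated bile acids, samples luminal bacteria through its lymphoid follicles, and secretes antibacterial lectins in response to them. Ciprofloxacin and metronidazole together act on Gram-negative aerobes and on anaerobes. The comparison addresses how the KO ileum differed from WT ileum when the bacterial load was treated.

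Cftr (chromosome 6, 18170687 to 18322768, plus strand, GRCm38) checked the genotype labels. Its value was 13.8 in WT and 4.94 in KO, a log2 ratio of -1.31. The untreated couples had ratios of -1.50, -1.58 and -1.41. The direction was the same in all 4 couples, and the antibiotic ratio was the smallest of them. The values count the whole gene, so they do not show from which part the remaining RNA came.

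Under antibiotics, 390 genes were at least 2-fold higher in KO (3.47% of those compared) and 116 were at least 2-fold lower (1.03%), together 506 (4.51%). The median log2 ratio over all genes was -0.04, and 42.8% of ratios were above 0. In 1 of the 116 lower genes the KO value was listed at 0. Of the 390 higher genes, 236 had a value of 1 or more in both libraries; the rest entered through the KO value only. Immunoglobulin segments made up 101 of the 390. The shares of 3.47% and 1.03% are the background for every list count below. The same genes split differently in untreated couples 1, 2 and 3, with 277 (2.47%), 252 (2.24%) and 379 (3.38%) at least 2-fold higher and 275 (2.45%), 331 (2.95%) and 271 (2.41%) at least 2-fold lower.

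**Figure D1:**
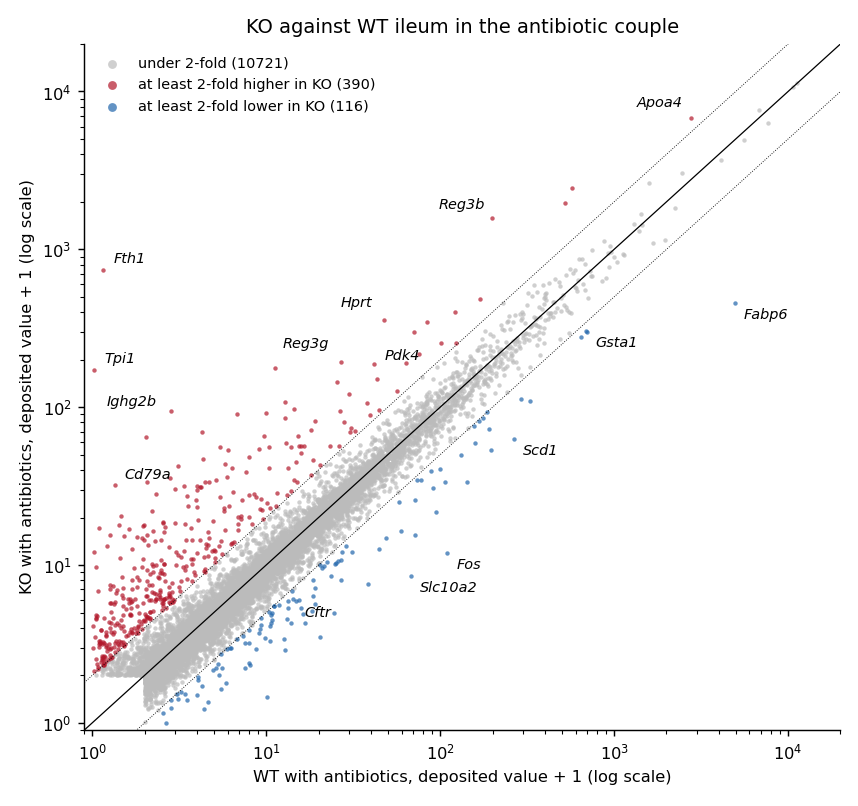
Values of 11227 genes in the WT (horizontal) and KO (vertical) library of the antibiotic couple, as deposited value + 1 on log axes; the solid line marks equal values and the dotted lines a 2-fold difference. The 390 genes at least 2-fold higher in KO (red) lie mostly at low WT values, while the 116 lower genes (blue) include the abundant Fabp6, at 4955 in WT and 458 in KO.

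The largest fold among abundant genes that were lower in KO belonged to the ileal handling of bile acids. Fabp6 encodes the cytosolic bile acid binding protein of ileal enterocytes (chromosome 11, 43596049 to 43601540, minus strand). It was 4955 in WT and 458 in KO, a 10.8-fold difference and a log2 ratio of -3.43. In the untreated couples it was lower in KO as well, with ratios of -2.72, -2.54 and -1.60 (limma adjusted p = 0.0623, and 0.0151 with the couple as a block). Slc10a2, the apical sodium-dependent bile acid transporter (chromosome 8, 5083219 to 5105351, minus strand), was 67.1 in WT and 7.53 in KO, a log2 ratio of -3.00. Its untreated ratios were 1.25, 0.18 and 1.71, so the antibiotic couple was the only one of the 4 with less Slc10a2 in KO.

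Other members of the bile acid list differed less. Nr0b2, the small heterodimer partner and a target of the bile acid receptor FXR, was 3.01 in WT and 0.51 in KO. The subunits of the basolateral exporter, Slc51a and Slc51b, had ratios of -0.95 and -0.48, and Nr1h4, which encodes FXR, was nearly equal at 30.5 and 28.9. The table held 16 of the listed genes, 11 were compared, and 3 were at least 2-fold lower and none higher, against 1.03% lower over all genes. The list median was -0.48 and 10 of the 11 ratios were below 0, beside -0.04 over all genes.

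Fgf15, the FXR-induced hormone that the ileum sends to the liver, stood apart from Fabp6 and Nr0b2. It was 18.6 in WT and 37.2 in KO under antibiotics, a log2 ratio of 0.96. In the untreated couples the WT values were 39.9, 10.2 and 56.4 and the KO values 0.0454, 0.455 and 1.57 (limma log2 change -4.24, SE 0.60, adjusted p = 0.0185). The ratio under antibiotics was thus above all 3 untreated ratios and of the other sign. The test of the difference between the antibiotic and untreated ratios gave 5.20 on the log2 scale (SE 1.21) with an adjusted p of 0.554 by limma (0.137 with the couple as a block), so it did not pass. Fgf15 was named after its values were seen.

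The summed level of genes that mark the distal small intestine was lower in KO in this couple, and that of proximal genes was higher, but 1 gene carried most of each difference. The 19 distal genes compared, which include Fabp6 and Slc10a2, summed to 9645 in WT and 4441 in KO. The 17 proximal genes, which include the apolipoprotein gene Apoa4, summed to 5172 in WT and 9483 in KO. Without Fabp6 the distal sum was 4690 in WT and 3982 in KO, and without Apoa4 the proximal sum was 2398 and 2661. The medians were -0.42 for the distal and 0.11 for the proximal list. By count, 4 distal genes were at least 2-fold lower and none higher, and 3 proximal genes were higher and 1 lower. Over all genes 1.03% were lower and 3.47% higher. In the untreated couples both sums were lower in KO (distal 9777 to 12510 in WT and 3230 to 6256 in KO; proximal 2768 to 4138 and 1169 to 1885). The part of the position of the sections along the ileum in the bile acid and fat results was not tested.

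Several genes of fasting metabolism and fat handling were higher in KO under antibiotics and lower in KO without them. Pdk4, the kinase that switches off pyruvate dehydrogenase (chromosome 6, 5483351 to 5496309, minus strand), was 40.5 in WT and 188 in KO. Its untreated values were 14.5, 26.3 and 72.1 in WT and 0.985, 0.719 and 2.48 in KO. The log2 ratio was 2.19 under antibiotics against -2.97, -3.99 and -4.39 without. Among the 117 genes significantly lower in untreated KO that could be compared, Pdk4 was the only one at least 2-fold higher here (0.855%, against 3.47% of all genes).

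G6pc and Pck1, enzymes of gluconeogenesis, showed the same sign pattern. G6pc, glucose-6-phosphatase, was 3.24 in WT and 30.2 in KO (log2 ratio 2.88; untreated -1.82, -1.24 and -0.88). Pck1, phosphoenolpyruvate carboxykinase, was 42.1 in WT and 150 in KO (1.80; untreated -1.14, -1.73 and -1.06). In the list of 32 glycolysis and gluconeogenesis genes, these 2 were at least 2-fold higher and none was lower, leaving aside Tpi1, whose WT value of 0.0178 is doubtful. Over all genes 3.47% were higher and 1.03% lower. The list median was 0.00, with 15 ratios above 0 and 16 below.

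Among 41 genes of fatty acid oxidation, 3 were at least 2-fold higher and 1 was lower, against 3.47% and 1.03% of all genes. Acot1, an acyl-CoA thioesterase, was 5.85 in WT and 19.2 in KO, with untreated ratios of -0.44, -1.77 and -2.87. Cyp4a10, a fatty acid omega-hydroxylase, was lower, at 131 in WT and 48.9 in KO. The list median was -0.03, close to that of all genes, whereas it was -0.59, -0.73 and -0.81 in the untreated couples, and 33 of the 41 ratios lay above all 3 untreated ratios (33.8% of all genes did).

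Some genes of fat absorption were also higher. Apoa4, a chylomicron apolipoprotein, was 2774 in WT and 6822 in KO (log2 ratio 1.30; untreated -1.06, -1.33 and -1.10). Cd36, a fatty acid translocase, was 74.3 in WT and 216 in KO, and Apoc2, the cofactor of lipoprotein lipase, was 101 in WT and 254 in KO. Apoc2 was higher in KO in all 4 couples, with untreated ratios of 0.67, 1.22 and 0.99. Fabp2, the intestinal fatty acid binding protein, had the same rank and so the same normalized value, 11280, in both libraries. Over 27 genes 3 were at least 2-fold higher and none was lower, against 3.47% and 1.03% of all genes, and the median was 0.17.

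Lipid synthesis genes were lower. All 26 genes of cholesterol synthesis and of the SREBP2 program, the sterol-sensing transcription system, had ratios below 0, with a median of -0.61. Over all genes 42.8% of ratios were above 0 and the median was -0.04. Of the 26, 2 were at least 2-fold lower, against 1.03% of all genes. Among them was Tm7sf2, a sterol reductase, at 10.9 in WT and 4.57 in KO. Sqle, the squalene epoxidase gene, was 11.5 and 6.33, with untreated ratios of 0.89, 0.73 and 1.75. In the untreated couples the list medians were 0.24, 0.29 and 0.79, and 24 of the 26 antibiotic ratios lay below all 3 of them for the same gene (33.9% of all genes did). Few members reached 2-fold, so the pattern lies in the shared sign of small ratios.

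Hmgcs1, the cytosolic HMG-CoA synthase of that pathway (75.5 in WT and 47.3 in KO), is shown with its promoter because it holds a match to the sterol element searched, TCACNCCAC. The window is the 250 bases before the RefSeq start (GRCm38.p6, chr13:119690101-119690350, plus strand), printed 5′ to 3′ with the match in capitals.
Hmgcs1: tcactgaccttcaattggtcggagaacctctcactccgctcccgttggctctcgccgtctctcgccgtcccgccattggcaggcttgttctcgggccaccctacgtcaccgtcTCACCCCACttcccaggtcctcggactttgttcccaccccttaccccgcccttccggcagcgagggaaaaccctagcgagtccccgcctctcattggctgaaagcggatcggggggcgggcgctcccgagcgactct
Either strand was searched in 32851 such windows of 27025 genes, and 1.05% of them held the element. Of the 22 windows of the cholesterol genes, 1 held it (4.55%), while 16 held the short motif CCAAT (72.7%, against 33.8% of all windows). A match of letters is a description and shows no binding.

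Fatty acid synthesis was lower by larger folds. Fasn, the fatty acid synthase, was 43.4 in WT and 11.6 in KO, Scd1, the stearoyl-CoA desaturase, was 266 and 61.8, and Scd2, its paralog, was 142 and 32.7. Thrsp, a lipogenic regulator, was 23.5 and 4.00, and Acaca, acetyl-CoA carboxylase, was 9.79 and 3.47. These were the 5 genes at least 2-fold lower among 17, against 1.03% of all genes. None was higher, and the list median was -0.63. The untreated ratios of Fasn were 0.06, -1.32 and 0.58, so its sign varied between couples without antibiotics.

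Several markers of fat cells moved with this group. The 4 adipocyte markers summed to 37.7 in WT and 13.2 in KO, with Lep at 0 in both. Adipoq, the adipocyte hormone adiponectin, was 12.3 in WT and 3.58 in KO. In the wider list of 12 adipocyte genes, 6 were at least 2-fold lower, against 1.03% of all genes. Only Pck1, given above, was at least 2-fold higher there, against 3.47%. That list had 3 ratios above 0, and its sums were near equal, at 400 in WT and 380 in KO. In untreated couples 1, 2 and 3 the 4 markers summed to 17.6 and 10.6, 44.3 and 8.91, and 15.5 and 39.3. The order of genotypes was that of Scd1 in all 3, and that of Fasn in couples 2 and 3 but not in couple 1, where Fasn was 14.8 and 15.4. Red cell markers also differed: Hba-a1 and Hbb-bs, adult globin genes with near-identical copies, were 190 and 158 in WT and 71.7 and 57.9 in KO. In bulk tissue, fewer cells of a type and less RNA per cell cannot be told apart. The part of mesenteric fat or blood in these ratios was not tested.

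**Figure D2:**
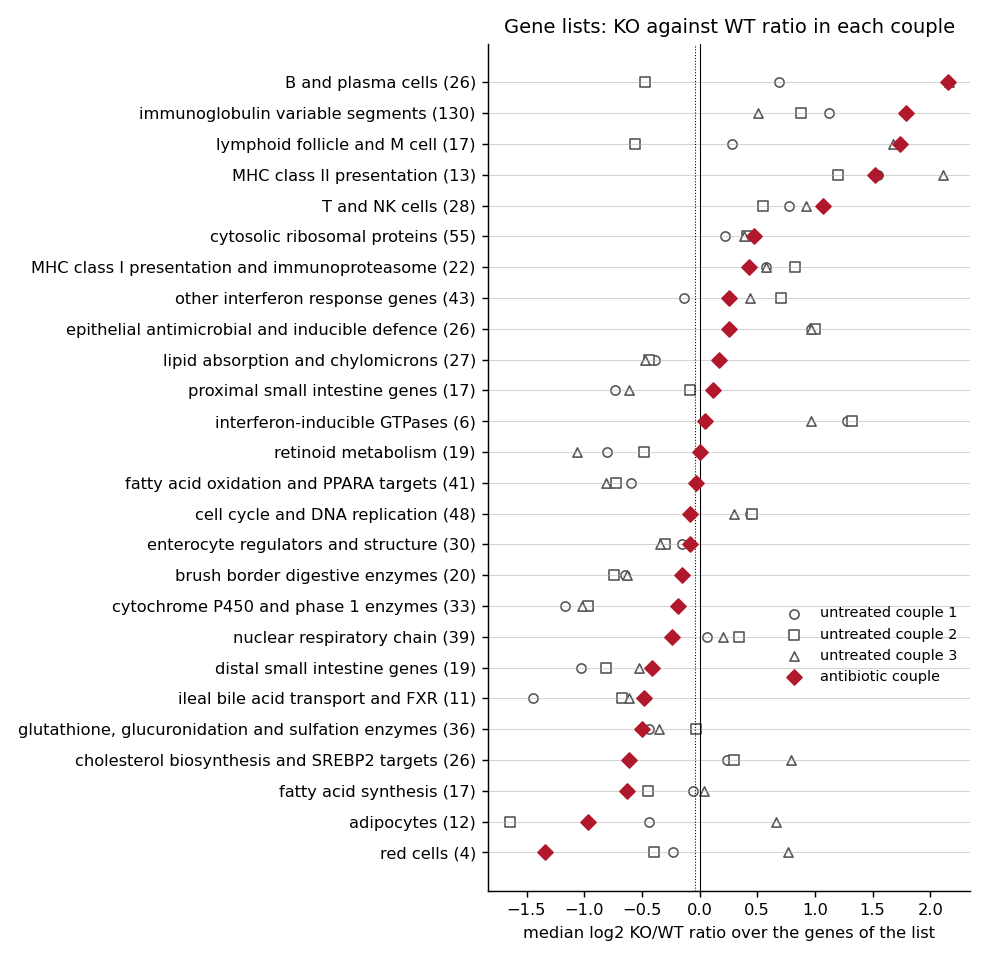
Median log2 KO/WT ratio (horizontal) for 26 gene lists (number of genes compared in brackets) in the antibiotic couple (red diamonds) and the 3 untreated couples (open symbols); the dotted line is the median of all genes in the antibiotic couple, -0.04. Cholesterol genes lie at -0.61 with all untreated medians above 0, and lists of MHC class II and T cell genes lie above 0 in all 4 couples.

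Genes of lymphocytes were among those with the largest ratios. Of 33 B and plasma cell genes in the table, 3 were left out as 0 in WT and 4 were under 1. Of the 26 compared, 23 were at least 2-fold higher in KO, against 3.47% of all genes, and none was lower. Of those 23 genes, 14 were below 1 in WT and entered through KO only, so the count is a description. Cd79a, a subunit of the B cell receptor, was 0.360 in WT and 31.2 in KO and Cd79b, its partner subunit, was 0.463 and 19.5. Ighm, the IgM heavy chain, was 3.27 and 68.8.

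The untreated couples differed among themselves in these genes. The list median was 2.15 under antibiotics and 0.69, -0.48 and 2.16 in untreated couples 1, 2 and 3, so couples 1 and 3 shared the direction and couple 2 did not. Because 14 of the 26 genes passed the filter through KO only, the antibiotic median is in part given by the filter. The untreated libraries had no part in that filter, so the sizes of these medians are not compared. For Cd79a the log2 ratio was 4.57 under antibiotics and 0.51, -1.94 and 3.59 in untreated couples 1, 2 and 3. The summed B cell markers were 0.844 in WT and 61.8 in KO under antibiotics, and 4.16 to 37.6 in untreated WT and 7.90 to 81.2 in untreated KO, with Ms4a1 at 0 in both antibiotic libraries. Within couples the sum was higher in KO in couples 1 and 3 and lower in couple 2. Whether a lymphoid follicle lay in the sampled section of only 1 mouse was not tested.

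Follicle genes moved with the B cell genes. Cxcl13, the chemokine that draws B cells into follicles, was 1.56 in WT and 17.8 in KO, Ltb, lymphotoxin beta, was 0.995 and 16.9, and Spib, a transcription factor of M cells and B cells, was 0.218 and 12.1. Clu, a follicular dendritic cell product also made in crypts, was 5.39 and 40.4. Among 17 genes 12 were at least 2-fold higher, against 3.47% of all genes, and the median was 1.73. However, 9 of the 12 were below 1 in WT, and with 1 or more required in both libraries the median was 0.64. For Cxcl13 the untreated ratios were 0.18, -2.24 and 3.26.

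Igha, Igj and Mzb1, products of plasma cells, were higher in KO in each of the 4 couples. Igha, the IgA heavy chain, was 519 in WT and 1954 in KO, and Igj, the joining chain of secreted IgA, was 83.0 and 348. Mzb1, a chaperone of antibody assembly, was 2.46 and 13.4, with a log2 ratio of 2.06 and untreated ratios of 1.19, 0.88 and 1.89 (limma adjusted p = 0.0353 without antibiotics). The 4 plasma cell markers summed to 605 in WT and 2319 in KO. Igkv2-137, a kappa variable segment, was 1.04 and 63.5, but it was lower in KO in each untreated couple (ratios -0.11, -1.43 and -0.19). Among 130 variable segments compared, 93 were at least 2-fold higher and 5 were lower, against 3.47% and 1.03% of all genes. Of the 93, 16 were below 1 in WT and entered through KO only, and 19 further segments were left out as 0 in WT. Since these segments resemble each other, reads may have been split between them in a way that is not known.

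T cell genes were higher in KO too. Trac, the T cell receptor alpha constant gene, was 1.25 in WT and 15.3 in KO, Cd3e was 0.598 and 5.10, and Cd8a was 0.818 and 2.87. All 28 T and NK cell genes compared had ratios above 0, and 16 of them were at least 2-fold higher, against 3.47% of all genes. Their median was 1.07 (0.86 where 1 or more was required in both). Among the 28, 14 were below 1 in WT and entered through KO only, so the filter gave their sign. These 14 include 10 of the 16, so these counts are a description. The medians of the untreated couples were 0.77, 0.55 and 0.92. Because the untreated libraries had no part in the filter, the sizes of these medians are not compared. The general leukocyte genes Coro1a (3.71 and 32.4), an actin regulator, Cd52 (2.95 and 25), a surface glycoprotein, and Arhgdib (1.99 and 17.4), a GTPase regulator, were among the 15 largest rises of abundant genes. Macrophage markers did not share this: their sum was 56.3 in WT and 59.0 in KO.

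Genes of MHC class II presentation, by which exogenous peptides are shown to CD4 T cells, were higher in KO. H2-Aa, the alpha chain of I-A (chromosome 17, 34282744 to 34287823, minus strand), was 62.4 in WT and 191 in KO, a log2 ratio of 1.60. Its untreated ratios were 1.91, 1.77 and 2.11 (limma log2 change 1.93, SE 0.25, adjusted p = 0.0128). H2-Eb1, a beta chain, was 2.13 and 10.5, and Cd74, the invariant chain, was 168 and 482. The peptide exchange subunits H2-DMa (4.76 and 15.7) and H2-DMb1 (4.35 and 12.3) and the master regulator Ciita (0.432 and 2.29) were also higher.

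Of 13 class II genes compared, 13 had ratios above 0 and 10 were at least 2-fold higher, against 3.47% of all genes. Of the 10, 4 were below 1 in WT and entered through KO only, so the filter gave their sign and these counts are a description. The median was 1.52, and 1.55, 1.20 and 2.11 in the untreated couples. Because the untreated libraries had no part in the filter, the sizes of these medians are not compared. B cells carry class II too. In untreated couple 2 the B marker sum was 37.6 in WT and 7.90 in KO while H2-Aa was 103 and 354. H2-Ob, a class II gene of B cells, was 3.16 in WT and 0.960 in KO there. The part of B cells in the class II ratios was not tested. The 22 class I genes compared showed small ratios, with a median of 0.43. Only Psmb8, an immunoproteasome subunit (7.52 and 27.4), was at least 2-fold higher among them, against 3.47% of all genes. A further 5 of the 29 class I genes in the table were left out as 0 in WT with 1 or more in KO, so the count leaves out genes on the higher side.

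Promoters of H2-Eb1 and H2-Aa are shown because class II genes are known to share an inverted CCAAT box, the Y box, close to their start. Each window is the 250 bases before the RefSeq start (GRCm38.p6), 5′ to 3′ along the gene, with matches to CCAAT on either strand in capitals (H2-Eb1 chr17:34305617-34305866, plus strand; H2-Aa chr17:34287824-34288073, minus strand).
H2-Eb1: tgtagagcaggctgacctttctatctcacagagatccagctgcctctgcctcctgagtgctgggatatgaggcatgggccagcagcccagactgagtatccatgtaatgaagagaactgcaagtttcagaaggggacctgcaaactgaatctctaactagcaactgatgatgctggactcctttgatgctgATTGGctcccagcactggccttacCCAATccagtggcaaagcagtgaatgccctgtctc
H2-Aa: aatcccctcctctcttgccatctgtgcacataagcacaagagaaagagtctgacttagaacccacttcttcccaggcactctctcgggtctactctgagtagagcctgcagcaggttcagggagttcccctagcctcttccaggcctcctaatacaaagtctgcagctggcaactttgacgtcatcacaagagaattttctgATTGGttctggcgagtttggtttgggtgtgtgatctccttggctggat
The matches begin 59 and 35 bases before the start in H2-Eb1 and 48 bases before it in H2-Aa. Of 12 windows from 11 class II genes, 9 held CCAAT (75%), against 33.8% of all 32851 windows. Windows of 37 cell cycle genes, whose list median here was -0.08, held it in 29 of 40 (72.5%), beside 75% for class II.

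Antibacterial defence genes behaved in several ways. The C-type lectins Reg3b (chromosome 6, 78370657 to 78373466, plus strand) and Reg3g, which are antibacterial and are near neighbours of similar sequence, kept a large ratio under antibiotics. Reg3b was 199 in WT and 1577 in KO, a log2 ratio of 2.98 beside 3.10, 4.29 and 2.17 without antibiotics. Reg3g was 25.9 and 192, a ratio of 2.85 beside 2.23, 4.55 and 2.40. Both lay inside the untreated range. Sprr2a3, a cornified envelope precursor with near-identical copies, was 12.3 and 26.6, with a ratio of 1.06 beside 3.10, 4.10 and 5.52. Dmbt1, a mucosal scavenger glycoprotein, was 15.4 and 56.0, with a ratio of 1.79 below its untreated 3.13, 2.73 and 3.54.

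Others of the same group had small ratios. Duoxa2, the maturation factor of the peroxide-producing oxidase DUOX2, was 1.82 in WT and 1.51 in KO under antibiotics. Without antibiotics the WT values were 4.32, 2.97 and 3.53 and the KO values 41.5, 53.8 and 111. Retnlb, a goblet cell peptide, had a ratio of 0.41 against 1.70, 2.00 and 1.82. Outside this group, Gpx2, the gastrointestinal glutathione peroxidase, was lower in KO under antibiotics (166 and 80.5). It was higher in KO in each untreated couple (112 and 277, 127 and 673, 187 and 773). Of 53 listed defence genes in the table, 25 were under 1 in both antibiotic libraries. Over the 26 compared, 6 were at least 2-fold higher, against 3.47% of all genes. At least 2-fold lower was 1 (S100g, the intestinal calcium binder calbindin), against 1.03% of all genes. The median was 0.25 beside 0.96, 1.00 and 0.97. Among 15 Paneth cell products compared, with 13 left out for shared WT values, 2 were at least 2-fold higher and none was lower, against 3.47% and 1.03% of all genes. These were Mptx2, a mucosal pentraxin (69.4 and 298), and Lyz2, a lysozyme also made by macrophages (37.1 and 105). The summed Paneth markers that could be used were 1502 in WT and 1358 in KO. Of 19 interferon-inducible GTPases in the table, 13 were under 1 in both antibiotic libraries. The 6 compared had a median of 0.05 beside 1.28, 1.32 and 0.96. Among these 6, Irgm2 (1.31 and 4.88) was at least 2-fold higher, against 3.47% of all genes. Their sums were low, 12.7 in WT and 15.5 in KO, and the log2(value + 1) scale understates ratios of low values.

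**Figure D3:**
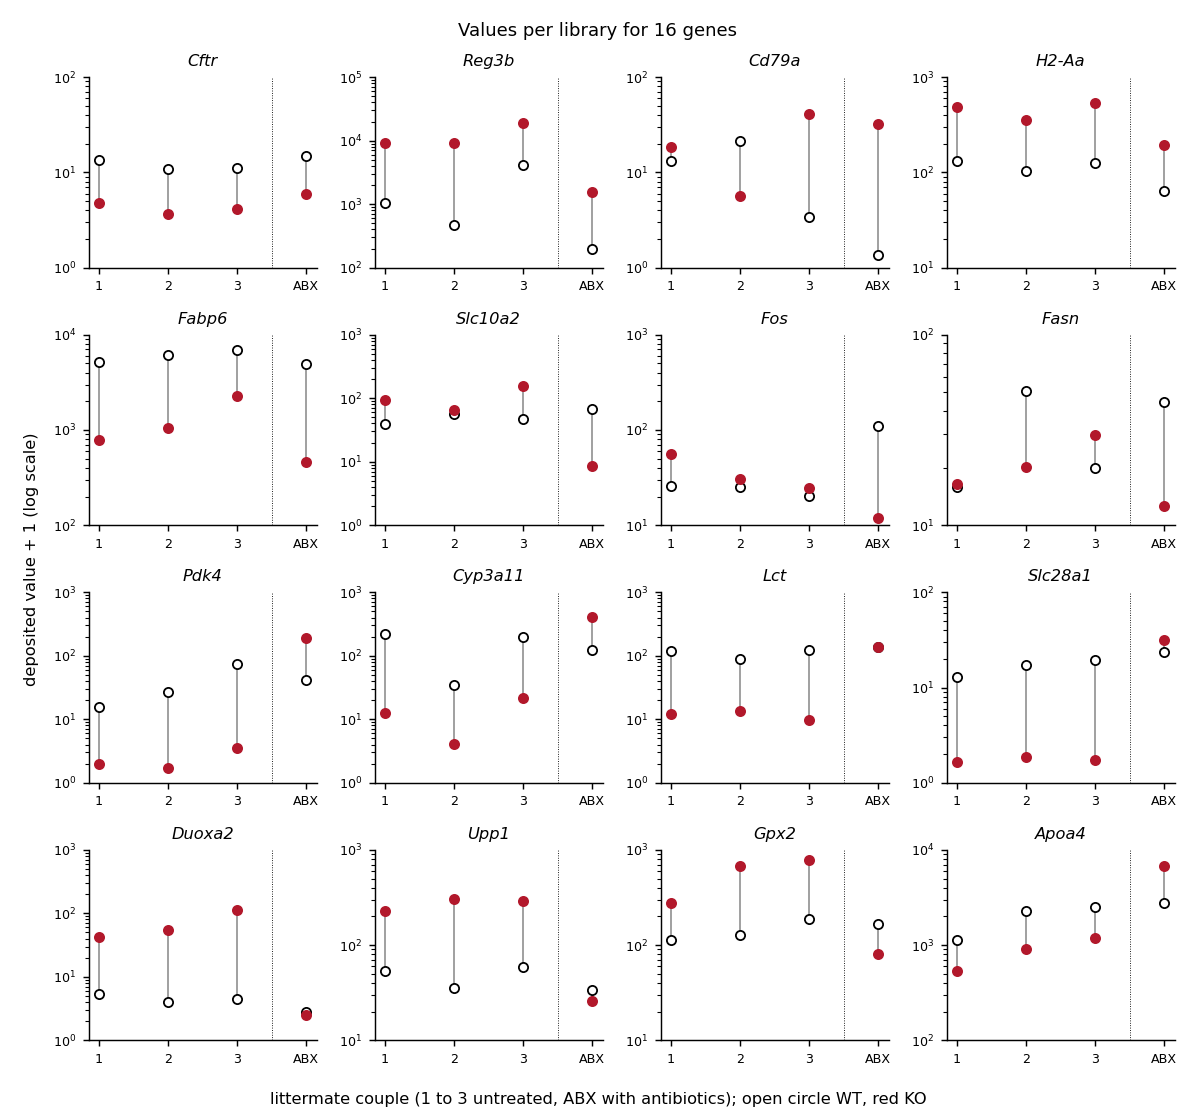
Deposited value + 1 (log scale) of 16 genes in each library; open circles are WT, red circles KO, and a grey line joins the 2 mice of a couple (1 to 3 untreated, ABX with antibiotics). H2-Aa and Reg3b keep their KO excess under antibiotics, Lct is 136 and 138 there and the circles coincide, and KO exceeds WT for Pdk4 and Apoa4 in that couple only; heights are comparable within a couple only.

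Many epithelial genes that were far lower in untreated KO ileum had near-equal values in the antibiotic couple. Lct, the brush border lactase (chromosome 1, 128284756 to 128328318, minus strand), was 136 in WT and 138 in KO. Without antibiotics the WT values were 119, 88.4 and 122 and the KO values 11, 12.4 and 8.87 in KO. Retsat, the retinol saturase, was 182 and 179, Cyp2d26, a cytochrome P450, was 225 and 219, and Acaa1b, a peroxisomal thiolase, was 159 and 151. Cda, cytidine deaminase, was 101 and 124, with untreated ratios of -2.62, -2.48 and -3.21.

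Slc28a1, the concentrative pyrimidine nucleoside transporter (chromosome 7, 81114799 to 81170416, plus strand), was 22.7 in WT and 30.3 in KO. Without antibiotics the WT values were 11.8, 16.3 and 18.4 and the KO values 0.633, 0.884 and 0.730. The difference between the antibiotic and the untreated ratio was 3.62 (SE 0.38, limma adjusted p = 0.0479). With the couple as a block the adjusted p was 0.0648, so the result did not pass with the block. It also did not pass without the block once Fth1 and Tpi1, whose WT antibiotic values are doubtful, were left out of the fit. On the other side, Upp1, a uridine phosphorylase, was 32.9 and 24.6, although it was higher in KO in each untreated couple, with ratios of 2.08, 3.08 and 2.30.

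The lower genes of untreated KO ileum were not all near equal. Cubn, the intrinsic factor receptor cubilin, was 185 in WT and 92.2 in KO, and Tm4sf4, a tetraspan membrane protein, was 700 and 300. Cyp3a11, the main drug-oxidizing P450 of its family, was 121 in WT and 403 in KO, against 216, 33.8 and 200 in WT and 11.7, 3.12 and 20.3 in KO without antibiotics (limma adjusted p = 0.0913, and 0.00554 with the couple as a block). Cyp2b10, a target of the xenobiotic receptor CAR, was 43.6 and 95.0. Reads from other Cyp3a and Cyp2b genes of similar sequence could have been counted with these. Of 33 phase 1 genes these 2 were the only ones at least 2-fold higher, against 3.47% of all genes, and none was lower. The median was -0.19 beside -1.17, -0.97 and -1.02.

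Several conjugating enzymes were lower in KO under antibiotics. Gsta1, an alpha-class glutathione transferase, was 690 in WT and 303 in KO, Gsta4 was 93.2 and 20.7, and Gstm3, of the mu class, was 195 and 52.9. Ugt2b5, a glucuronosyltransferase, was 48.0 and 13.9, lower in KO in each untreated couple too (ratios -1.90, -0.73 and -1.63). Of 36 genes 9 were at least 2-fold lower, against 1.03% of all genes, and none higher, with a median of -0.50. The alpha-class genes are close paralogs whose reads may be shared. Gsta1 had untreated ratios of -0.37, 0.73 and 0.02.

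The genes significant without antibiotics were followed as a set. Limma called 135 genes higher and 118 lower in untreated KO (1.15% and 1.01% of 11717). With the couple as a block, which the shared litters allow, it called 984 and 1161 (8.4% and 9.91%), and without any 1 of the 6 libraries, with no block, 43 to 76 and 25 to 79. Of the first set, 102 and 117 could be compared here. Most of the 33 higher genes not compared were under 1 in both antibiotic libraries (28). Of the 102, 30 were at least 2-fold higher under antibiotics (29.4%), none was lower, and 80 had a ratio above 0 (78.4%). Of the 117, 16 were at least 2-fold lower (13.7%) and 80 had a ratio below 0 (68.4%). Over all genes 42.8% of ratios were above 0, so a ratio below 0 was the more common sign. At least 2-fold higher were 3.47% of all genes, and 1.03% were at least 2-fold lower. With the block set, 9.04% and 2.85% were at least 2-fold changed in the same direction. The 30 included 7 class II genes, and the 16 included Cftr, Cubn, Nr0b2 and Abcb1a, the multidrug transporter.

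The ratios under antibiotics were smaller for most of these genes. The median of the 102 was 0.56, against 1.52 in the untreated couples, and 83 lay below all 3 untreated ratios. The median of the 117 was -0.19, against -1.42, and 105 lay above all 3 untreated ratios. Over all genes 33.9% lay below and 33.8% above. The genes were chosen for their untreated ratios, so a smaller ratio in any other couple is in part given by the choice, and these counts are a description.

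**Figure D4:**
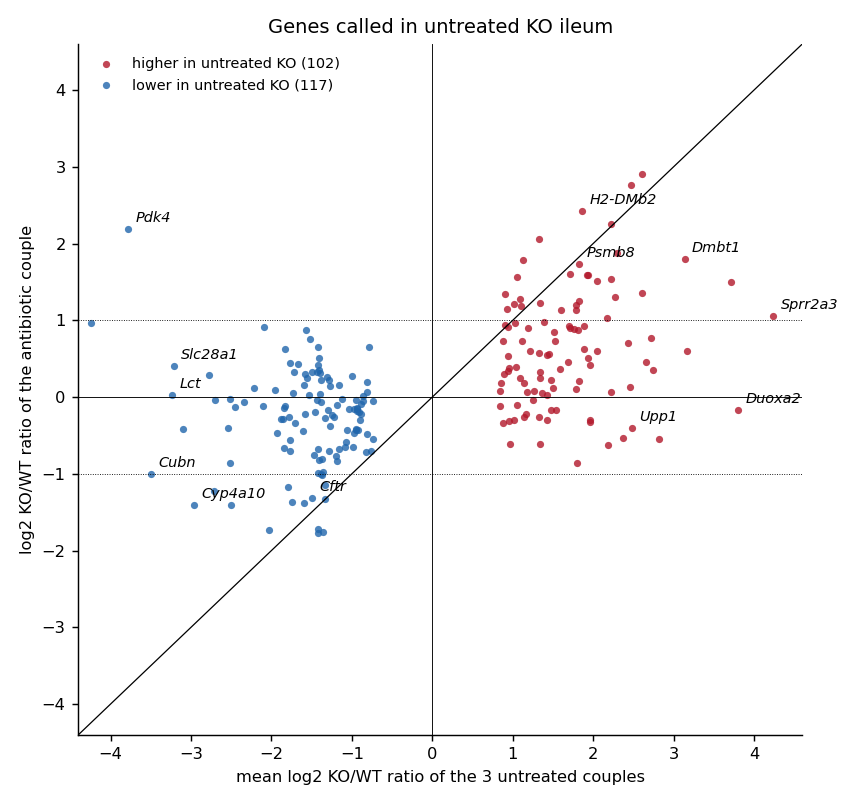
Log2 KO/WT ratio in the antibiotic couple (vertical) against the mean ratio of the 3 untreated couples (horizontal) for genes significantly higher (red, 102) or lower (blue, 117) in untreated KO; the diagonal marks equal ratios and the dotted lines a 2-fold difference. Most blue points lie near 0, with Lct at 0.02 and Pdk4 at 2.19. Of the class II genes at least 2-fold higher here, H2-DMb2 lies above the diagonal (2.42 against 1.86). Cd74 (1.52 against 2.04), Ciita, H2-Aa, H2-DMa, H2-DMb1 and H2-Eb1 lie below it.

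Across all 11227 genes the antibiotic ratio correlated weakly with the untreated ratios (Pearson r = 0.303, 0.135 and 0.364 with couples 1, 2 and 3, and 0.311 with their mean; Spearman coefficient 0.223 with the mean). The untreated couples correlated with each other at 0.606, 0.648 and 0.575. Genes are not independent replicates, couples 1 and 2 share a normalization set, and the couples differ in litter, so antibiotics, litter and normalization set cannot be told apart in the lower likeness.

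The difference between antibiotic and untreated ratios was tested over 11522 genes with all 8 libraries, assuming that the antibiotic libraries vary like the others. It passed for 3 genes in the higher direction (0.026%) and for 1 in the lower (0.00868%), and 485 genes (4.21%) had an unadjusted p under 0.05 (1854, 16.1%, with the couple as a block). The first 2 were Fth1, ferritin heavy chain, at 0.15 in WT and 736 in KO, and Tpi1, triosephosphate isomerase, at 0.0178 and 171. Their WT values lie far below those of all other libraries (660 to 916 and 161 to 247), and that column also held the many shared values, so nothing is drawn from these 2 genes; what led to such values is not known. The other 2 were Slc28a1 and Plet1, a placenta-expressed surface protein that was 0.588 in WT and 0.119 in KO, too low to be compared here, and at 9.54 to 14.6 in untreated KO. With the couple as a block, Fth1 and Tpi1 remained, and Plet1 had an adjusted p of 0.0544. When Fth1 and Tpi1 were left out of the fit without the block, no gene passed, so the adjusted p of Slc28a1 and Plet1 depended on them.

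Among single genes with large ratios were Hprt, Fos and Ada. Hprt, a purine salvage enzyme that is also used as a selection marker in gene targeting, was 46.4 in WT and 356 in KO, and was higher in KO in every couple (ratios 0.88, 2.62 and 3.19 without antibiotics). Its values were 219, 27 and 47.1 in untreated WT and 403, 171 and 438 in untreated KO. Fos, an immediate early transcription factor (chromosome 12, 85473890 to 85477273, plus strand), was 109 in WT and 11 in KO, against untreated ratios of 1.13, 0.30 and 0.27. Atf3 (15.8 and 3.31), Fosb (3.41 and 0.227) and Hbegf (15.3 and 3.93) were lower with it. Among 28 immediate early genes 5 were at least 2-fold lower and 1 higher, against 1.03% and 3.47% of all genes. Ada, adenosine deaminase, was 14.2 and 64.9, with untreated ratios of 0.50, -0.61 and -0.69. Slc28a2, a purine nucleoside transporter, was 26.8 and 80.1, and Enpp3, a brush border nucleotide phosphodiesterase, was 18 and 81.3.

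Further genes were among the 15 largest falls of abundant genes. Slc5a4a, a member of the sodium-glucose transporter family, was 19.3 in WT and 2.48 in KO, lower in KO in each untreated couple too. Suox, the mitochondrial sulfite oxidase, was 37.5 and 6.6, and Slc13a1, the sulfate transporter, was 58.8 and 15.4. Tmem117, a membrane protein, was 18.1 and 4.65, and it was significantly lower in untreated KO too (ratios -1.74, -1.30 and -1.06, limma adjusted p = 0.0191). Outside that ranking, Dbp, a clock output factor, was 25.9 and 7.01. Dbp, Per1 and Per3 were the 3 of 16 clock genes at least 2-fold lower, against 1.03% of all genes, with none higher. The list median was -0.43 beside -0.45, -0.51 and -0.31.

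Other groups showed small ratios. No cell cycle gene of 48 reached 2-fold, with a median of -0.08 beside 0.44, 0.46 and 0.30 in the untreated couples. Crypt stem cell markers summed to 171.5 in WT and 166 in KO, with Olfm4 at 155 and 151. Goblet cell markers summed to 4048 and 2735, lower in KO as in each untreated couple. Ribosomal protein genes were slightly higher in KO, with 54 of 55 ratios above 0 (42.8% over all genes) and a median of 0.47. By contrast, 37 of 39 nuclear respiratory chain genes had ratios below 0, with a median of -0.24. A further 22 ribosomal and 37 respiratory chain genes were left out for their shared WT values.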

How the data were processed

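Ileal mRNA was measured in 8 libraries, 1 per mouse, given in 1 table of 41128 gene symbols. Per the series' design text, the authors mapped reads from a HiSeq 2000 or an Ion Proton (which library on which is not stated) to GRCm38.76 in CLC Genomics Workbench 7.5. The deposited values, read as RPKM, name no unit. Within a couple the columns hold nearly the same set of values, as after quantile normalization, and 3 sets were normalized separately (couples 1 and 2, couple 3, and the antibiotic couple). Column sums ran from 346794 to 397082 and the depth is unknown.

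Ratios were taken as differences of log2(value + 1) with a 2-fold threshold. Genes under 1 in both antibiotic libraries were left out. The untreated couples (3 against 3), and the difference between the antibiotic and untreated ratios (8 libraries), were fitted with limma 3.58.1 in R 4.3.3 with a trended prior and Benjamini-Hochberg adjustment at 0.05, on genes of 1 or more in at least 3 libraries, after a test on simulated data. In the second fit the spread comes from the untreated libraries alone. Same-numbered mice were littermates, and their deviations from the group means correlated at 0.62, 0.64 and 0.51, so fits with the couple as a block were run as well. The fits without the block take levels of separately normalized couples as replicates. Their p-values thus measure the spread between these mice together with differences between the normalization sets.

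Genes named are Cftr, the 15 largest rises and falls among genes at or above the median level, up to 4 changed members and the most abundant member of each of 53 lists, the 12 largest untreated changes each way, and up to 10 genes of the difference test. Immunoglobulin and T cell receptor segments and predicted genes took no place in the rankings. At least as high as the smallest rise named, 2.19, were 33 immunoglobulin segments, 1 T cell receptor segment and 1 predicted gene. Fgf15, Slc51a, Slc51b, Nr1h4, Acaca, Hmgcs1, Sqle, Cd79b, Igha, Igj, Mzb1, Ciita, H2-Aa, Cd3e, Cd8a and Abcb1a were added after their values were seen, and so were any others outside the rule. Some genes that the rule names are not reported here. The members and lists were chosen with earlier results of these data known. Gene positions are from GENCODE M21 and promoters from RefSeq, both on GRCm38. Alternatives changed the pseudocount, the filter, the centring, the genes left out, the block, the trend and the libraries used.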

Additional observations from a re-analysis of the deposited data

Results flagged for a closer look

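The difference between the antibiotic and the untreated ratio passed limma's adjusted threshold for Fth1 (9.51), Tpi1 (7.21), Slc28a1 (3.62) and Plet1 (-3.76), on the log2 scale. For the first 2 the WT antibiotic value lies far below that of every other library. With the couple as a block Slc28a1 (adjusted p = 0.0648) and Plet1 (0.0544) did not pass, and with Fth1 and Tpi1 left out of the fit no gene passed in either direction.

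Another set, taken from the genes named here, had an antibiotic log2 ratio of at least 0.5 in size and of the opposite sign to all 3 untreated ratios. For none of them did the difference pass the test. Fgf15, Sqle and Hmgcs1 were added after their values were seen. The share of all genes with this sign pattern is not given, so the set is a description of the named genes only. Higher in KO under antibiotics and lower in each untreated couple were Igkv2-137 (4.98), G6pc (2.88), Pdk4 (2.19), Enpp3 (2.11), Pck1 (1.80), Cyp3a11 (1.72), Acot1 (1.56), Slc28a2 (1.54), Apoa4 (1.30), Cyp2b10 (1.11) and Fgf15 (0.96). Lower under antibiotics and higher in each untreated couple were Fos (-3.20), Slc10a2 (-3.00), Gsta3 (-1.31), Gpx2 (-1.04), Sqle (-0.78) and Hmgcs1 (-0.66).

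The limma adjusted p of the difference was 0.24 for Fos and Slc10a2, 0.331 for Pdk4, 0.554 for Fgf15 and 0.913 for Cyp3a11. With the couple as a block it was 0.0816 for Fos, Pdk4 and Cyp3a11, 0.126 for Slc10a2 and 0.137 for Fgf15. The median of the cholesterol list was -0.61 against positive medians in all 3 untreated couples, and that difference was not tested.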

How the results depend on the processing

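The count of genes at least 2-fold higher in KO under antibiotics (390) was 169 with a pseudocount of 5, 236 with a value of 1 or more required in both libraries and 255 with 5 or more in at least 1. The count lower (116) was 242 with a pseudocount of 0.1, 52 with 5, and 225 with the shared and zero genes kept. The median of the tuft cell list turned from 0.53 to -0.08 with 1 or more required in both. Of the genes higher in untreated KO, the share at least 2-fold higher under antibiotics was 9.04% with the block and 10.8% with a pseudocount of 5, and the share at least 2-fold lower was 0.811% and, with a pseudocount of 0.1, 1.96%. Of those lower in untreated KO, the share at least 2-fold lower was 2.85% with the block, 21.4% with a pseudocount of 0.1 and 4.27% with 5. Leaving out 1 couple with the block gave 1.85%, 1.51% and 2.19% (without couples 1, 2 and 3) for the higher genes at least 2-fold lower, 7.26%, 7.17% and 8.81% for the lower genes at least 2-fold lower, and 2.42%, 2.53% and 2.71% for the lower genes at least 2-fold higher. The cause was not tested.

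With the littermate couple as a block, the untreated fit called 984 genes higher and 1161 lower, and without a filter 7 and 4. Leaving out a library or a couple, with or without the block, gave 0 to 276 higher and 0 to 303 lower. With the block, 231 and 243 were called without couple 2 and 276 and 303 without couple 3. Without 1 library and no block, 43 (without WT of couple 3) to 76 (without WT of couple 1) were higher and 25 (without WT of couple 3) to 79 (without WT of couple 2) were lower. The 0 arose without any 1 couple and no block, on 4 libraries. The difference test gave 1 higher and 0 lower without a filter, 0 lower with the block, with a pseudocount of 0.1 or without the trend, 44 and 30 with the shared and zero genes kept, and 0 and 0 without Fth1 and Tpi1. Leaving out a library or a couple gave 0 to 3 higher and 0 lower throughout; the 0 higher arose without couple 1. The correlation with the mean untreated ratio ran from 0.23 to 0.37. Among single gene ratios, 503 of the recomputed values were within the spread between couples and 64 moved further; for list medians these were 444 and 29, beside the 1 that changed sign. Depth is unknown, so the counting error of single values could not be given.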
